A study of Mus musculus with 30 samples.

Results

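Livers of mice fed 20% casein (Cas-20%) were compared with livers of mice fed 20% soy without added amino acids (Soy-20%), 6 against 6. These are all the livers of both diets and 12 of the 30 libraries in the series. All 12 came from male C57BL6/J mice, 6 months old by the labels, that arrived at 9 weeks of age, spent 2 weeks on a diet with their own protein source and, from 12 weeks of age, ate the assigned diet for 12 weeks before a 4 h fast. Both groups therefore stayed on 1 diet throughout, and neither was switched or restricted. Cas-20% held 0.57 g of methionine and 0.41 g of cysteine per 100 g of diet, and Soy-20% held 0.22 g of each. Protein source and sulfur amino acid content differ together and cannot be told apart here. The study also reported slower gain of body weight and fat mass on Cas-20% than on both soy control diets, significant only late in the feeding. Its recipe lists slightly more lard for Cas-20% than for Soy-20%. Body fat and lard therefore also differ with the protein source and cannot be told apart from it. Values from 6 livers of the supplemented diet (Soy-20% + SAA, 20% soy with 0.58 g methionine and 0.41 g cysteine) are set beside the results for that reason. In the libraries of supplemented livers 4 to 6 counts rose with the GC content of transcript ends, by 0.198, 0.197 and 0.222 log2 units per 10% GC. The 12 livers compared ran from −0.044 to 0.042, so where the supplemented livers lie is uncertain. A second pair of diets, Cas-5% (5% casein, 0.15 g methionine, 0.1 g cysteine) and Soy-10% (11.5% soy, 0.13 g of each), shares no liver with the first. The study set the Soy-20% diet up as the unsupplemented control for its soy diets. The comparison asks how liver mRNA differs between the protein sources at 1 protein level.

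The liver takes up dietary amino acids from portal blood, burns the excess through transaminases and ring-cleaving enzymes, and passes the nitrogen to the urea cycle. Methionine is converted to S-adenosylmethionine, the methyl donor, then to homocysteine, and through transsulfuration to cysteine, from which glutathione and taurine are made. Soy brings less methionine than casein and also plant compounds such as isoflavones, while hepatocytes meet foreign compounds through the nuclear receptors CAR and PXR, whose target genes include Cyp3a and carboxylesterase family members.

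Reads counted on genes ran from 9993509 to 12046128 per liver, with medians of 11159957 on Cas-20% and 10545744 on Soy-20%. The 10 most abundant genes took 26.6% to 34.1% of a library, most in Cas-20% liver 2. Hepatocyte markers were abundant in every library, their summed normalized counts running from 904662 to 1031980 on Cas-20% and from 901524 to 1073520 on Soy-20%. In bulk liver, fewer cells of a type and less RNA per cell cannot be told apart. None of the 12 marker lists but that of hepatocytes (*Cps1* and *Ass1*) held a called gene. The summed red blood cell markers were 15728 to 34944 on Cas-20% and 10117 to 28966 on Soy-20%, and the adipocyte markers 174 to 309 and 247 to 658, with overlap in both. Cas-20% livers 1 to 3 stood apart from livers 4 to 6 on the first 2 principal components. The metallothionein *Mt1* had normalized counts of 181 to 210 in livers 1 to 3 and 1510 to 2436 in livers 4 to 6, against 158 to 562 (median 333) on Soy-20%. The clock output gene *Dbp* had 533 to 667 and 1140 to 1348 in the same livers, and *Fasn* 5483 to 9594 and 2056 to 3291. The 2 sets did not overlap for 22.2% of all genes tested and for 20 of the 79 called genes with values in the text. The labels name no batch or time of day for this split. Soy-20% was therefore also compared with each set of 3 alone, a choice made after seeing the data.

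Of 11875 genes tested, 319 (2.69%) differed between the diets (called: Benjamini-Hochberg adjusted p up to 0.05 in edgeR's quasi-likelihood test), and 2174 (18.3%) had an unadjusted p under 0.05. On Soy-20%, 147 genes were higher (1.24%) and 172 lower (1.45%). A log2 fold change of 1 or more in either direction was reached by 45 called genes (0.379%), and the 6 livers of each diet did not overlap for 289 genes (2.43%). Fold changes are given as Soy-20% minus Cas-20% on the log2 scale, ± their standard error. The count of 319 fell to 96, 38 higher and 58 lower, when the trend of each library with 3′ end GC content entered the fit, to 188 without Cas-20% liver 3 or liver 4, to 192 without Soy-20% liver 2 and to 160 without Soy-20% liver 4. Against Cas-20% livers 1 to 3 alone 598 genes differed (4.9%), of which 337 were higher (2.76%) and 261 lower (2.14%). Against livers 4 to 6 alone 163 differed (1.33%), 60 higher (0.491%) and 103 lower (0.843%). Of the 319 genes, 218 were called in the former and 90 in the latter. The count of 45 rose to 68 without Cas-20% liver 6. Soy-20% against Soy-20% + SAA held 1 called gene of 11932, and 0 with the GC trend in the fit. Soy-20% + SAA against Cas-20% held 291 of 11988, and 9 with the GC trend.

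Genes of foreign compound metabolism held some of the largest rises. Of 26 tested targets of CAR, PXR and AHR and their receptors, 5 rose on Soy-20% and 2 fell, with a median of 0.07 against −0.005 over all genes. With Cas-20% livers 1 to 3 alone as the controls 6 rose and 2 fell, and with livers 4 to 6 alone 2 rose and 2 fell. *Cyp3a11*, the main drug-metabolizing cytochrome P450 of mouse liver and a PXR target (chromosome 5, 145854426 to 145879964, GRCm38), had normalized counts of 4586 to 8177 (median 6263) on Cas-20% and 20340.1 to 43713 (median 34069) on Soy-20%. Every Soy-20% liver lay above every Cas-20% liver (2.40 ± 0.18, edgeR adjusted p = 3.2e-06), and the difference was 2.63 and 2.20 against livers 1 to 3 and livers 4 to 6 alone. The supplemented soy livers ran from 20169.5 to 44024 (median 24873), also above all casein livers. *Cyp3a59*, a close relative, had 54.3 to 117 (median 66.6) and 153 to 378 (median 173), again without overlap (1.63 ± 0.26, edgeR adjusted p = 0.004). *Cyp3a25* had 3453 to 5349.7 (median 3962) and 5585 to 7590.1 (median 5929.6) (0.55 ± 0.12, edgeR adjusted p = 0.023), a call lost with the GC trend (adjusted p = 0.094) and without Cas-20% liver 3. That call was also lost with all 30 livers in the fit (adjusted p = 0.16) and with the replicate number as a block (adjusted p = 0.069). Reads from the near-identical Cyp3a genes may be split between them by the counting, so their separate values are uncertain.

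*Ces2a*, a carboxylesterase that hydrolyses ester drugs and lipids, had 1197 to 1511 (median 1431) on Cas-20% and 2211 to 3397 (median 2916) on Soy-20% (1.05 ± 0.09, edgeR adjusted p = 2.2e-05). The supplemented soy livers had 2543 to 3281 (median 2749.7), so that no soy liver of either diet reached into the casein range. *Cyp2c55* had low counts, 4.98 to 24.1 (median 20.6) and 24 to 57.9 (median 38.6) (1.10 ± 0.28, edgeR adjusted p = 0.049), and its call was lost in 11 of 12 fits that left out a liver. Those that fell were *Sult1d1*, a sulfotransferase (−0.48 ± 0.09, edgeR adjusted p = 0.0093), and *Cyp1a2*, the AHR target that oxidizes caffeine (−0.61 ± 0.14, edgeR adjusted p = 0.029). The fall of *Cyp1a2* was not called with the GC trend (adjusted p = 0.14) or in 9 of 12 fits that left out a liver. *Cyp3a25*, *Cyp2c55*, *Sult1d1* and *Cyp1a2* were chosen after their values were seen.

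The 250 bases before the start of 3 of the genes that rose are shown because their mRNA moved together and because CAR and PXR, with RXR, bind pairs of the half-sites AGGTCA and AGTTCA. Capitals mark both half-sites on either strand (reverse forms TGACCT and TGAACT). Sequences and starts are RefSeq's for GRCm38.p6, each read 5′ to 3′ on the gene's strand. The RefSeq start of *Cyp3a11* lies inside the GENCODE gene whose span is given above, so that 110 of its 250 bases fall within that span. The windows were *Cyp3a11* at chr5:145879855-145880104 (minus strand), *Cyp3a59* at chr5:146079008-146079257 (plus strand) and *Ces2a* at chr8:104733753-104734002 (plus strand).
Cyp3a11: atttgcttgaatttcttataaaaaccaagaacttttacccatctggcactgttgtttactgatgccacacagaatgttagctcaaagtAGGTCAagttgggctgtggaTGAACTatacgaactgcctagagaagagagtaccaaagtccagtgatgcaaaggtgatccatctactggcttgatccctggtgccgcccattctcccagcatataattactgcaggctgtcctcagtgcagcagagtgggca
Cyp3a59: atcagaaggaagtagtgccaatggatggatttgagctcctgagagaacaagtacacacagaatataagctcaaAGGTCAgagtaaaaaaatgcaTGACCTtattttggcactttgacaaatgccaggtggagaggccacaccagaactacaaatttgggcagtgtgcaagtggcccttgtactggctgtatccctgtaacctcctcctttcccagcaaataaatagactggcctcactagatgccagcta
Ces2a: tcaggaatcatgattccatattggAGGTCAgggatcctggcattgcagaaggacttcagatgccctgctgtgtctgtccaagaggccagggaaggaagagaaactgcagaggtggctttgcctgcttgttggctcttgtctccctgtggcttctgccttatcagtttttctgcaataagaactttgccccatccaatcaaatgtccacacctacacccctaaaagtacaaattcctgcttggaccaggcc
*Cyp3a11* held 1 AGGTCA and 1 AGTTCA match, *Cyp3a59* held 2 AGGTCA matches and *Ces2a* held 1. AGGTCA lay in 14.0% of 32851 mouse promoters of this length and in 11 of 38 from the list, and AGTTCA in 11.8% and in 6 of 38. A match of 6 letters is a description of the window and not a binding site.

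**Figure D1:**
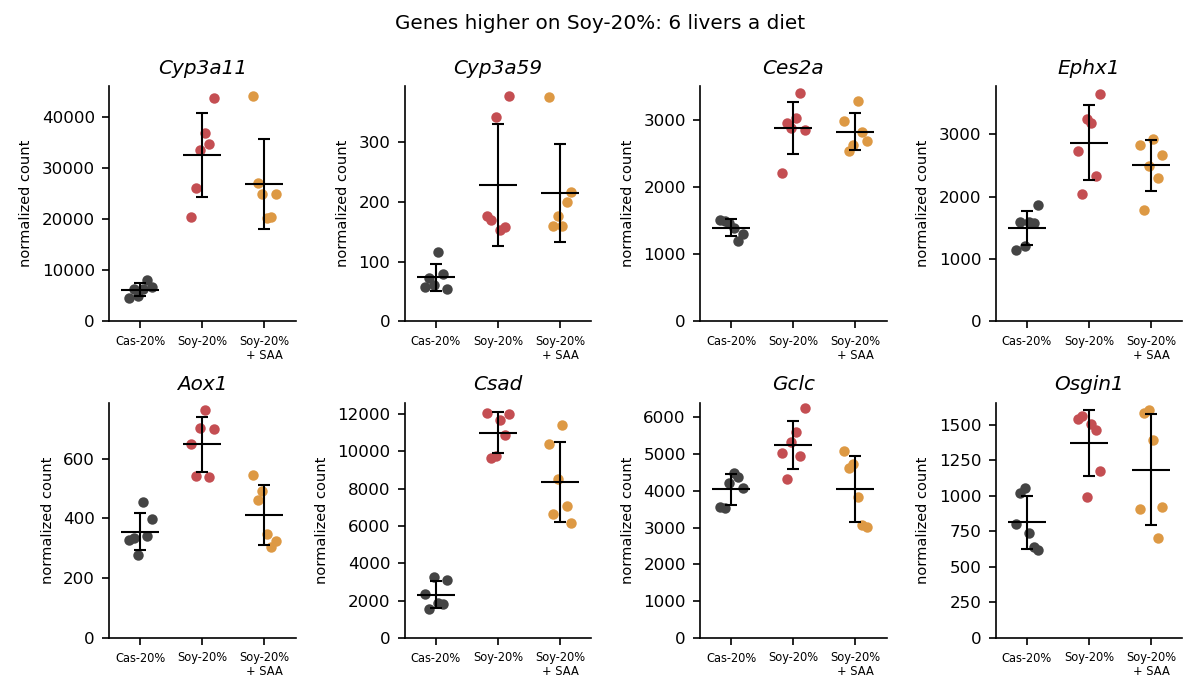
Normalized counts of 8 genes called higher on Soy-20% (y axes, from 0) in 6 livers each of Cas-20%, Soy-20% and Soy-20% + SAA, with the mean and SD as lines. The Soy-20% livers of *Cyp3a11*, *Cyp3a59*, *Ces2a*, *Ephx1*, *Aox1* and *Csad* lie above all Cas-20% livers, while *Gclc* and *Osgin1* overlap.

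Other carboxylesterases moved the same way. Of 12 tested *Ces* genes, a family looked at after its values were seen, 5 rose, none fell and the median was 0.38. *Ces1e* had 1385 to 1891 (median 1542) on Cas-20% and 2430.2 to 3086 (median 2909) on Soy-20% (0.84 ± 0.08, edgeR adjusted p = 4.5e-05), and *Ces1d*, a triglyceride hydrolase, had 2227 to 4036 (median 2885) and 4704 to 7044 (median 5544) (0.89 ± 0.14, edgeR adjusted p = 0.004). Neither gene overlapped between the diets. On Soy-20% + SAA *Ces1e* had 2289.6 to 3265 (median 2589) and *Ces1d* 1938 to 5295 (median 2781), the former above and the latter across the casein range. *Ces1d* had 3096 to 5295 in Soy-20% + SAA livers 1 to 3 and 1938 to 2467 in its livers 4 to 6, those with the steep GC trend. *Ces1b* and *Ces1f* rose by less (0.54 and 0.41), and the call of *Ces1f* was lost in 7 of 12 fits that left out a liver. The Ces1 genes lie in a cluster of close copies, so reads may be split among them. *Aox1*, aldehyde oxidase, also chosen after its values were seen, had 276 to 455 (median 338) and 538 to 764 (median 674) without overlap (0.87 ± 0.12, edgeR adjusted p = 0.0015).

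Targets of NRF2, the factor that answers electrophiles, and glutathione transferases held 3 rises and no fall among 30 tested, with a median of 0.18. *Ephx1*, microsomal epoxide hydrolase, had 1144 to 1874 (median 1586) on Cas-20% and 2047 to 3649 (median 2959) on Soy-20%, with no overlap (0.93 ± 0.14, edgeR adjusted p = 0.0034). *Ugdh*, which makes the UDP-glucuronate used in conjugation, had 875 to 1094 (median 1026) and 1243 to 1840.5 (median 1392) (0.54 ± 0.09, edgeR adjusted p = 0.0064). Supplemented soy livers had 1789.8 to 2919 (median 2581) for *Ephx1* and 746 to 1384 (median 964) for *Ugdh*. The median lay above the casein range for *Ephx1* and within it for *Ugdh*. *Ugdh* had 1036 to 1384 in Soy-20% + SAA livers 1 to 3 and 746 to 892 in its livers 4 to 6, those with the steep GC trend. *Osgin1*, an oxidative stress response gene, had overlapping ranges of 621 to 1058 (median 771) and 993 to 1559.5 (median 1485) (0.75 ± 0.15, edgeR adjusted p = 0.012).

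In sulfur metabolism the leading gene was *Csad*, cysteine sulfinic acid decarboxylase, which makes the hypotaurine step of taurine synthesis (chromosome 15, 102176999 to 102204724). Its normalized counts were 1526 to 3288 (median 2115) on Cas-20% and 9645 to 12067 (median 11250) on Soy-20%, and the lowest soy liver had more than the highest casein liver (2.24 ± 0.17, edgeR adjusted p = 3.2e-06). Livers on Soy-20% + SAA, at the methionine and cysteine of Cas-20%, had 6154 to 11427 (median 7791). Of 21 tested genes of transsulfuration, cysteine use and glutathione synthesis, 2 rose and 1 fell, with a median of −0.01. *Gclc*, the catalytic subunit that limits glutathione synthesis, had 3520.3 to 4473 (median 4147) and 4325 to 6241 (median 5178) (0.38 ± 0.09, edgeR adjusted p = 0.039), and its call was lost with the GC trend and in 7 of 12 fits that left out a liver. *Cdo1*, which makes the substrate of *Csad* from cysteine and was chosen after its values were seen, had a difference of 0.16 that was not called (edgeR adjusted p = 0.26). *Papss2*, which makes the sulfate donor of sulfotransferases and was chosen the same way, fell, with 1275 to 1635 (median 1525) on Cas-20% and 906 to 1191 (median 1046) on Soy-20% (−0.52 ± 0.08, edgeR adjusted p = 0.0034).

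Called genes of the methionine cycle were lower on Soy-20%. Of 22 tested genes of the cycle and of methyl transfer, 6 fell and none rose, with a median of −0.14. Compared with casein livers 1 to 3 alone 3 fell and 1 rose, and with livers 4 to 6 alone 1 fell. *Gnmt*, glycine N-methyltransferase, which consumes surplus S-adenosylmethionine, had 29563 to 46658 (median 32413) on Cas-20% and 21614 to 24853 (median 23235) on Soy-20%, without overlap (−0.56 ± 0.10, edgeR adjusted p = 0.0078). The supplemented livers had 26119.8 to 32821 (median 29430.4), all above the Soy-20% livers and overlapping the casein range. Between Soy-20% and Soy-20% + SAA *Gnmt* was not called (edgeR adjusted p = 0.062). *Bhmt2*, which remethylates homocysteine with S-methylmethionine, had 1354 to 1781 (median 1542) and 1056 to 1289 (median 1174) (−0.40 ± 0.07, edgeR adjusted p = 0.011), and *Gamt*, the methyltransferase of creatine synthesis, 2753 to 3144 (median 2834) and 1989.9 to 2482 (median 2388) (−0.31 ± 0.07, edgeR adjusted p = 0.024). The other falls were *Nnmt*, *Dmgdh* and *Bhmt*, named after their values were seen, at −0.98, −0.30 and −0.56. With the GC trend only *Gnmt* stayed called of these 6, and the calls of *Nnmt*, *Dmgdh* and *Bhmt* were lost in 5, 10 and 8 of 12 fits that left out a liver. *Mat1a*, which makes S-adenosylmethionine, differed by −0.41 and was not called (edgeR adjusted p = 0.088).

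Genes that respond to amino acid shortage did not stand out in the whole comparison. ATF4 is the factor of that response. Of its 30 tested targets none rose and 1 fell, with a median of 0.08. With Cas-20% livers 1 to 3 alone as the controls 1 rose and 1 fell, and with livers 4 to 6 alone also 1 rose and 1 fell. The one that fell in the whole comparison was *Shmt2*, the mitochondrial serine hydroxymethyltransferase (−0.33 ± 0.06, edgeR adjusted p = 0.014). Its call was lost with the GC trend (adjusted p = 0.057) and with the replicate number as a block (adjusted p = 0.064). *Fgf21*, the liver hormone of protein restriction, had 16 to 61.7 (median 21.4) on Cas-20% and 20.9 to 53.7 (median 43.7) on Soy-20%, with a difference of 0.42 and an edgeR adjusted p of 0.56. The difference was 1.01 against Cas-20% livers 1 to 3 alone (edgeR adjusted p = 0.096) and −0.001 against livers 4 to 6 alone, where it was not called either. *Asns*, asparagine synthetase, had 7.75 to 46.6 (median 19.2) and 15.1 to 29.6 (median 21.9), with a difference of 0.03 whose sign depended on single livers. It had 21.5 to 46.6 in Cas-20% livers 1 to 3 and 7.75 to 16.9 in livers 4 to 6. The difference was −0.47 against the former alone and 0.82 against the latter alone, neither called (edgeR adjusted p = 0.37 and 0.19). *Psat1*, phosphoserine aminotransferase, had too few reads to be tested, at 1.93 to 7.01 (median 4.7) and 4.02 to 12.6 (median 6.35). *Cth* and *Mars1* differed by −0.36 and 0.29 and were not called (edgeR adjusted p = 0.1 and 0.12).

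In the lists of amino acid breakdown and the urea cycle every called gene was lower on Soy-20%. Of 27 tested genes of serine, glycine, threonine and proline metabolism and of the transaminases, 6 fell and none rose, with a median of −0.16. Set against Cas-20% livers 1 to 3 alone 9 fell, and against livers 4 to 6 alone 4. *Oat*, ornithine aminotransferase (chromosome 7, 132557478 to 132576398), had 5982 to 11349.6 (median 8365) on Cas-20% and 2838 to 3689 (median 3147) on Soy-20% (−1.42 ± 0.14, edgeR adjusted p = 4.5e-05). *Got1*, the cytosolic aspartate aminotransferase, had 2166 to 4998 (median 3291) and 870.2 to 1829 (median 1574) (−1.19 ± 0.19, edgeR adjusted p = 0.004). Neither gene overlapped between the diets, and both stayed called in all 19 other fits over both sets of casein livers. *Got1* had 3333 to 4998 in Cas-20% livers 1 to 3 and 2166 to 3249 in livers 4 to 6. *Agxt*, which transaminates glyoxylate, had 1018 to 1504 (median 1286) and 655 to 903 (median 886), also without overlap (−0.61 ± 0.10, edgeR adjusted p = 0.004). Supplemented soy livers had 3963 to 7559.8 (median 4944) for *Oat*, 1297 to 2554 (median 1991) for *Got1* and 916 to 1300.5 (median 1266) for *Agxt*, each between or across the ranges of the other diets. *Gpt*, *Aldh4a1* and *Prodh*, named after their values were seen, fell by 0.52, 0.35 and 0.59, and the calls of *Aldh4a1* and *Prodh* were lost with the GC trend (adjusted p = 0.061 and 0.057).

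Of 23 tested genes of phenylalanine, tyrosine, histidine and tryptophan breakdown, 6 fell and none rose, with a median of −0.16. The falls numbered 7 against Cas-20% livers 1 to 3 alone and 2 against livers 4 to 6 alone. *Hpd*, a dioxygenase of tyrosine breakdown, had 10527 to 14852 (median 11415) on Cas-20% and 7537 to 9341 (median 8559) on Soy-20% (−0.50 ± 0.09, edgeR adjusted p = 0.01). No liver of one diet reached the range of the other. *Tat*, tyrosine aminotransferase, overlapped slightly, at 2841 to 8786 (median 4559) and 1817 to 2969 (median 2317) (−1.09 ± 0.21, edgeR adjusted p = 0.012), and was not called with the GC trend (adjusted p = 0.07) or the replicate block (adjusted p = 0.062). It was higher in Cas-20% livers 1 to 3 (4998 to 8786) than in livers 4 to 6 (2841 to 4119), and was not called against the latter alone (−0.61, edgeR adjusted p = 0.062). For *Tat* the supplemented soy livers had 866 to 2994 (median 1263), a median below the ranges of both other diets. Their livers 1 to 3 had 1319 to 2994, and livers 4 to 6, those with the steep GC trend, 866 to 1207. *Uroc1*, *Fah* and *Hgd*, named after their values were seen, fell by 0.33, 0.24 and 0.37, each lost with the GC trend and, in that order, in 4, 11 and 11 of 12 fits that left out a liver. Of 25 tested genes of branched-chain amino acid and lysine breakdown 1 fell, a share near that of all genes. It was *Aass*, the first enzyme of lysine breakdown, with 2059 to 2773 (median 2258) on Cas-20% and 1437 to 1809 (median 1692) on Soy-20% (−0.49 ± 0.08, edgeR adjusted p = 0.006).

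Of 11 tested urea cycle genes 2 fell, 10 were lower in sign and the median was −0.27. There were 6 falls against Cas-20% livers 1 to 3 alone and 1 against livers 4 to 6 alone, which was neither *Cps1* nor *Ass1*. *Cps1*, carbamoyl phosphate synthetase, the entry of ammonia into the cycle, had 8139 to 13501 (median 10771) on Cas-20% and 5074 to 7935 (median 7106) on Soy-20%, with no overlap (−0.69 ± 0.14, edgeR adjusted p = 0.016). *Ass1*, argininosuccinate synthetase, had 5837 to 12682 (median 7499) and 4110.1 to 6365 (median 5065) (−0.70 ± 0.16, edgeR adjusted p = 0.034). Both calls were lost with the GC trend (adjusted p = 0.087 and 0.18), and that of *Ass1* also with the replicate block (adjusted p = 0.06) and in 7 of 12 fits that left out a liver. In Cas-20% livers 1 to 3 *Cps1* had 11889 to 13501 and *Ass1* 7936 to 12682, and in livers 4 to 6 8139 to 9653 and 5837 to 7062. The differences were −0.91 and −0.97 against the former alone and −0.42 and −0.36 against the latter, where neither was called (edgeR adjusted p = 0.15 and 0.19). Supplemented soy livers had 3094 to 7888 (median 5349) for *Cps1*, below every casein liver, and 4211 to 6037 (median 5095) for *Ass1*, overlapping the casein range. *Cps1* had 6659 to 7888 in Soy-20% + SAA livers 1 to 3 and 3094 to 4040 in its livers 4 to 6, those with the steep GC trend. *Gls2*, liver glutaminase, came close, at −0.45 (edgeR adjusted p = 0.051).

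Amino acid transporters, looked at after their values were seen, held 5 falls and no rise among 21 tested members of 6 families, with a median of −0.01. *Slc38a3*, a glutamine and histidine transporter, had 5278 to 6647 (median 5520.4) on Cas-20% and 3129 to 3908 (median 3556) on Soy-20% (−0.70 ± 0.08, edgeR adjusted p = 0.00015). *Slc7a2*, a transporter of arginine and lysine, had 3853 to 5929 (median 4484) and 1784 to 3240.1 (median 2432) (−0.91 ± 0.13, edgeR adjusted p = 0.0021). Neither overlapped, and the supplemented livers had 4031 to 5221 (median 4486) and 2692 to 3234 (median 3147). *Slc38a4* and *Slc1a2*, carriers of neutral amino acids and of glutamate, fell by 0.46 and 0.65. *Slc38a7* fell by 0.43, a call lost with the GC trend (adjusted p = 0.069) and with the replicate block (adjusted p = 0.059).

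**Figure D2:**
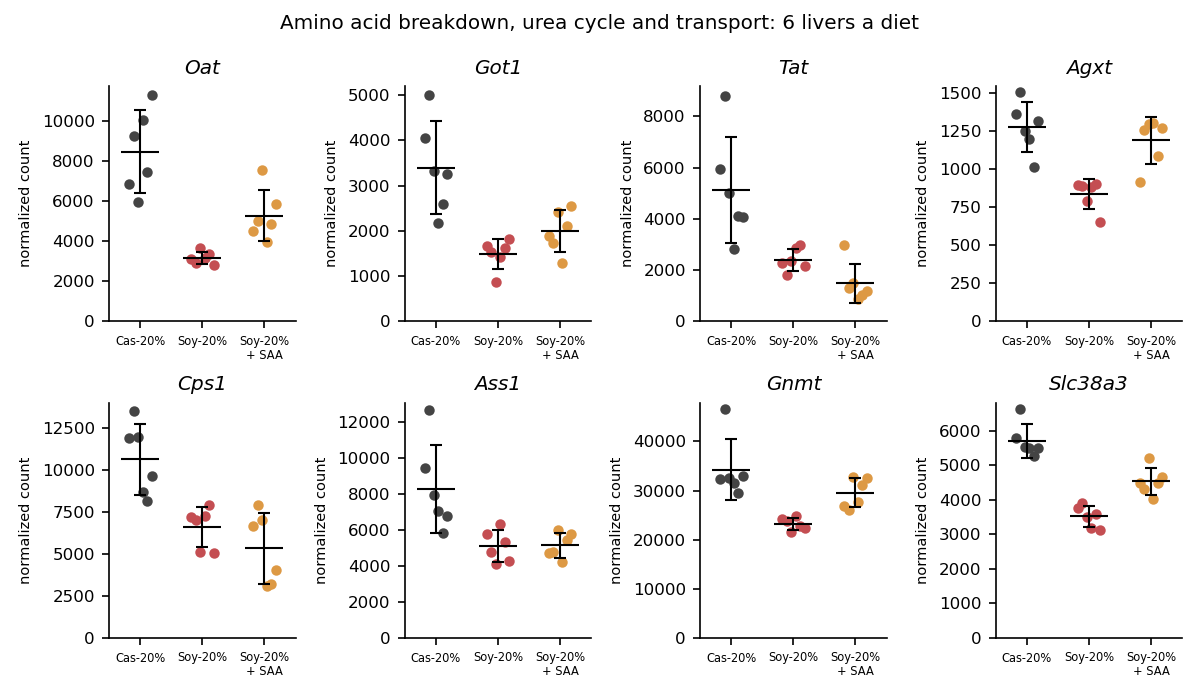
Normalized counts of 8 genes of amino acid breakdown, urea cycle, methyl transfer and transport called lower on Soy-20% (y axes, from 0) in 6 livers each of Cas-20%, Soy-20% and Soy-20% + SAA, with the mean and SD as lines. Soy-20% livers lie below all Cas-20% livers for each gene but *Tat* and *Ass1*.

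Fatty acid synthesis was lower in part. Of 24 tested genes of the pathway and targets of SREBF1, the factor that drives it, 4 fell and none rose, with a median of −0.37. Against Cas-20% livers 1 to 3 alone 5 fell and the median was −0.75, and against livers 4 to 6 alone 2 fell and the median was 0.13. *Fads2* and *Fads1* introduce double bonds into polyunsaturated fatty acids. *Fads2* had 199 to 318 (median 242) on Cas-20% and 106 to 175 (median 127) on Soy-20% (−0.92 ± 0.13, edgeR adjusted p = 0.0029), and *Fads1* had 5109 to 6058 (median 5667) and 3043 to 5057 (median 3504) (−0.61 ± 0.11, edgeR adjusted p = 0.0067). Neither overlapped. The supplemented livers had 173 to 423 (median 243) for *Fads2* and 4056 to 7732 (median 5116) for *Fads1*, with medians near those of Cas-20%. *Srebf1* itself had 1078 to 2099.6 (median 1437) and 493 to 1082 (median 579.7) (−1.13 ± 0.21, edgeR adjusted p = 0.012), and *Scd1*, stearoyl-CoA desaturase, 72878 to 121121 (median 101247) and 46954 to 79433 (median 61635) (−0.67 ± 0.13, edgeR adjusted p = 0.012). Both overlapped by little, and both calls were lost with the GC trend (adjusted p = 0.061 and 0.057). That of *Scd1* was also lost with all 30 livers in the fit (adjusted p = 0.12). For *Srebf1* the Soy-20% + SAA livers had 144 to 635, below every Cas-20% liver. Its supplemented livers 1 to 3, those without the steep GC trend, had 344 to 635. For *Scd1* the supplemented livers had 44402 to 144089 (median 70373), across the ranges of both other diets. *Fasn*, fatty acid synthase, had 2056 to 9594 (median 4387) and 1095 to 8006 (median 2382), a spread within each diet larger than the difference of −0.57 (edgeR adjusted p = 0.58). *Srebf1*, like *Fasn*, was higher in Cas-20% livers 1 to 3 (1533 to 2100) than in livers 4 to 6 (1078 to 1341). *Scd1* had 102046 to 121121 and 72878 to 100448 in the same sets. Against livers 4 to 6 alone neither *Srebf1* (−0.75, edgeR adjusted p = 0.11) nor *Scd1* (−0.52, adjusted p = 0.1) was called.

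Genes of fat use and storage held 1 call in each of 2 lists, near the 2.69% of all genes called. Of 36 tested genes of fatty acid oxidation and targets of PPARA 1 rose, 31 were higher in sign and the median was 0.23. Against Cas-20% livers 1 to 3 alone 16 rose and the median was 0.52, whereas against livers 4 to 6 alone none rose, 1 fell and the median was −0.01. The gene that rose in the whole comparison was *Pex11a*, a peroxisome division protein, with 1404 to 2885 (median 2235) on Cas-20% and 3191 to 5823 (median 3931) on Soy-20% (0.90 ± 0.20, edgeR adjusted p = 0.027), lost with the GC trend and in 5 of 12 fits that left out a liver. Of 26 tested lipid droplet genes 1 rose, *Plin5*, the perilipin of oxidative tissues, with 222 to 348 (median 258) and 366 to 476 (median 420.2) (0.60 ± 0.12, edgeR adjusted p = 0.014), a call lost with the GC trend (adjusted p = 0.063). Against livers 1 to 3 alone 8 droplet genes rose, and against livers 4 to 6 alone none. *Pex11a* had 1404 to 1659 in Cas-20% livers 1 to 3 and 2812 to 2885 in livers 4 to 6, and *Plin5* had 222 to 234 and 282 to 348. Against livers 4 to 6 alone neither was called (0.53 and 0.37, edgeR adjusted p = 0.13 and 0.098). *Cidec*, a droplet fusion protein, had 10.2 to 125 (median 53.2) and 56.8 to 449 (median 173) and was not called at 1.85 (edgeR adjusted p = 0.074). None of 25 cholesterol synthesis genes passed the test by edgeR, nor had any an unadjusted p under 0.05. Their median was −0.37 against Cas-20% livers 1 to 3 alone and 0.36 against livers 4 to 6 alone, with no call in either.

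Of 24 tested genes of bile acid synthesis and sterol transport 2 rose and 1 fell. *Baat*, which joins bile acids to taurine, had 1838 to 2119 (median 2012) on Cas-20% and 2297 to 2595 (median 2378) on Soy-20%, without overlap (0.28 ± 0.06, edgeR adjusted p = 0.021). *Cyp8b1*, which directs synthesis to cholic acid, had 3419 to 4678 (median 3842) and 4352 to 6620.3 (median 5853) (0.50 ± 0.12, edgeR adjusted p = 0.031). *Abcg5*, a sterol exporter, had 343 to 539 (median 488) and 253 to 418 (median 329.9) (−0.49 ± 0.12, edgeR adjusted p = 0.04). All 3 calls were lost with the GC trend, and that of *Baat* also without Cas-20% liver 3. Those of *Cyp8b1* and *Abcg5* were lost in 7 and 8 of 12 fits that left out a liver. With the replicate block *Baat* and *Abcg5* were not called (adjusted p = 0.077 for both), nor was *Baat* with all 30 livers in the fit (adjusted p = 0.23).

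Of 19 tested clock genes 2 fell and none rose, with a median of −0.37. *Per2*, a repressor of the clock, had 87.1 to 155 (median 128) on Cas-20% and 17.8 to 93.7 (median 51) on Soy-20% (−1.13 ± 0.26, edgeR adjusted p = 0.029), and *Nr1d1*, REV-ERB alpha, had 612 to 752 (median 713) and 412 to 640.1 (median 549.6) (−0.39 ± 0.10, edgeR adjusted p = 0.049). Both overlapped, and both were lost with the GC trend and in 7 and 9 of 12 fits that left out a liver. *Dbp* differed by −0.70 and was not called (edgeR adjusted p = 0.25), with the split among the Cas-20% livers given above. *Klf15*, a factor of amino acid use in fasting, was chosen after its values were seen and had 712 to 841 (median 773) and 498 to 638 (median 559), with no overlap (−0.48 ± 0.07, edgeR adjusted p = 0.003). *Nr4a1*, an immediate early gene, chosen the same way, had 13.2 to 106 (median 42.4) and 7.83 to 16.1 (median 10.2) (−2.15 ± 0.39, edgeR adjusted p = 0.0088). Of 28 tested glucose and glycogen genes 2 fell, *Pck1*, the gluconeogenic carboxykinase (−0.54 ± 0.13, edgeR adjusted p = 0.035), and *Sik1*, a kinase induced by cAMP (−0.76 ± 0.17, edgeR adjusted p = 0.029), both lost with the GC trend and in 7 and 8 of 12 fits that left out a liver.

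**Figure D3:**
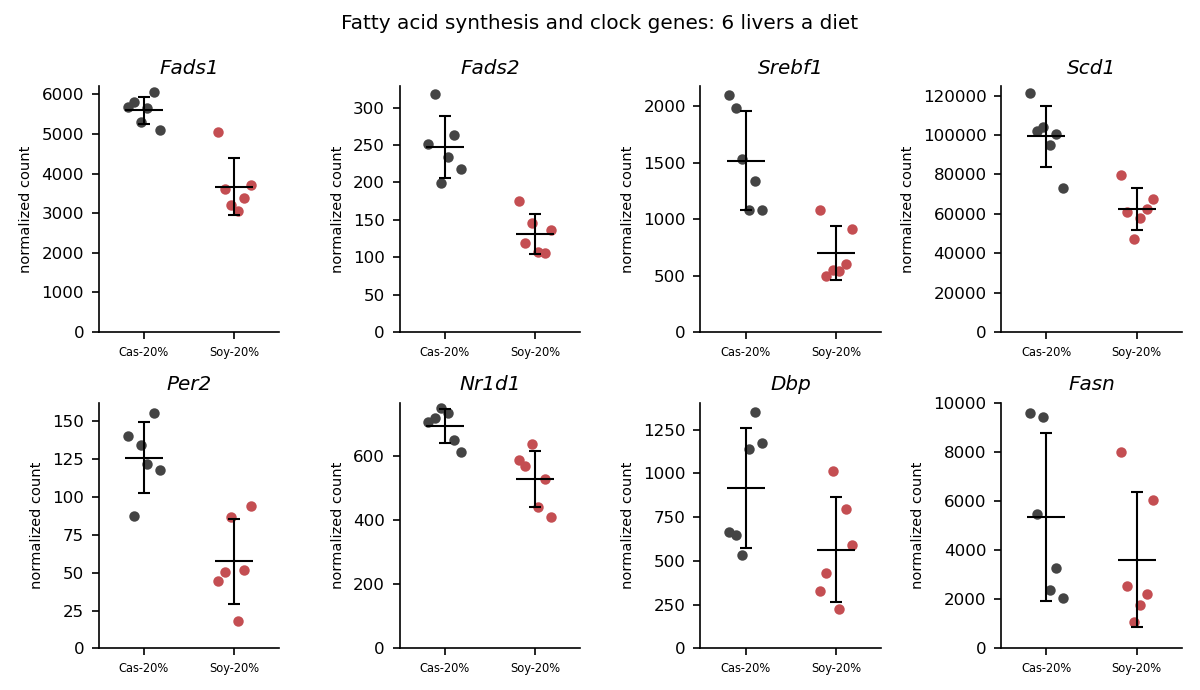
Normalized counts of 4 fatty acid synthesis genes and *Fasn*, and of 3 clock genes (y axes, from 0), in 6 livers each of Cas-20% and Soy-20%, with the mean and SD as lines. *Fads1* and *Fads2* do not overlap, whereas *Fasn* and *Dbp* spread as widely within a diet as between diets.

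Sex-biased liver genes, many set by the rhythm of growth hormone, held 2 calls in each list, where 2.69% of all genes were called. Of 32 tested male-biased genes 1 rose and 1 fell. *Keg1*, a glycine acyltransferase-like gene, rose, with 872 to 1349.9 (median 981) on Cas-20% and 1215 to 2204 (median 1496) on Soy-20% (0.67 ± 0.14, edgeR adjusted p = 0.021). *Cyp4a12b*, a fatty acid hydroxylase, fell, with 567 to 1977 (median 1252) on Cas-20% and 372 to 618 (median 558) on Soy-20% (−1.25 ± 0.21, edgeR adjusted p = 0.006), and it was higher in Cas-20% livers 1 to 3 (1265 to 1977) than in livers 4 to 6 (567 to 1239). Of 15 female-biased genes 2 fell. *Hamp2*, a second hepcidin gene, had 967 to 3130.3 (median 1404) and 231 to 718 (median 497), without overlap (−1.78 ± 0.30, edgeR adjusted p = 0.0053), and *Cyp17a1*, a steroid hydroxylase, 255 to 957 (median 443) and 89.9 to 265 (median 176) (−1.56 ± 0.30, edgeR adjusted p = 0.012). *Mup9*, a major urinary protein, had 328 to 699 (median 455) and 814 to 4278 (median 1435) (2.07 ± 0.38, edgeR adjusted p = 0.0091) and was the only one of 19 tested *Mup* genes called. The calls of *Keg1*, *Cyp17a1* and *Mup9* were lost with the GC trend (adjusted p = 0.1, 0.055 and 0.078). Mup and Cyp4a12 genes are near-identical copies, so reads may be split among them. None of 25 growth hormone and IGF1 genes passed the test by edgeR, and 5 had an unadjusted p under 0.05, as 18.3% of all genes had.

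Other lists held few calls. Of 31 acute phase and complement genes 1 fell, *F7*, coagulation factor VII, with 578 to 732 (median 657) on Cas-20% and 436 to 529 (median 483) on Soy-20%, with no overlap (−0.46 ± 0.07, edgeR adjusted p = 0.0034). Of 18 MHC class I and antigen presentation genes 1 fell, *H2-Q1*, at 154 to 250.2 (median 197) and 50.4 to 149.5 (median 90.9) (−1.06 ± 0.21, edgeR adjusted p = 0.015), with supplemented livers at 107 to 376 (median 187). The call of *H2-Q1* was lost with the GC trend (adjusted p = 0.069) and with the replicate block (adjusted p = 0.059). *Hamp2* was the only one of 25 iron, zinc and copper genes called in the whole comparison. Against Cas-20% livers 1 to 3 alone 1 rose and 1 fell. Against livers 4 to 6 alone 1 rose and 4 fell, where 1.33% of all genes were called. *Mt1* differed by 0.84 against the former (edgeR adjusted p = 0.11) and by −2.52 against the latter (adjusted p = 0.00023). None of 82 cytosolic ribosomal protein genes passed the test by edgeR, though 32 had an unadjusted p under 0.05, all higher, and the median was 0.11. DESeq2 called 9 of them. None of 77 respiratory chain genes passed by edgeR, and 3 passed by DESeq2. An unadjusted edgeR p under 0.05 was held by 10 of the 77, against 18.3% of all genes.

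**Figure D4:**
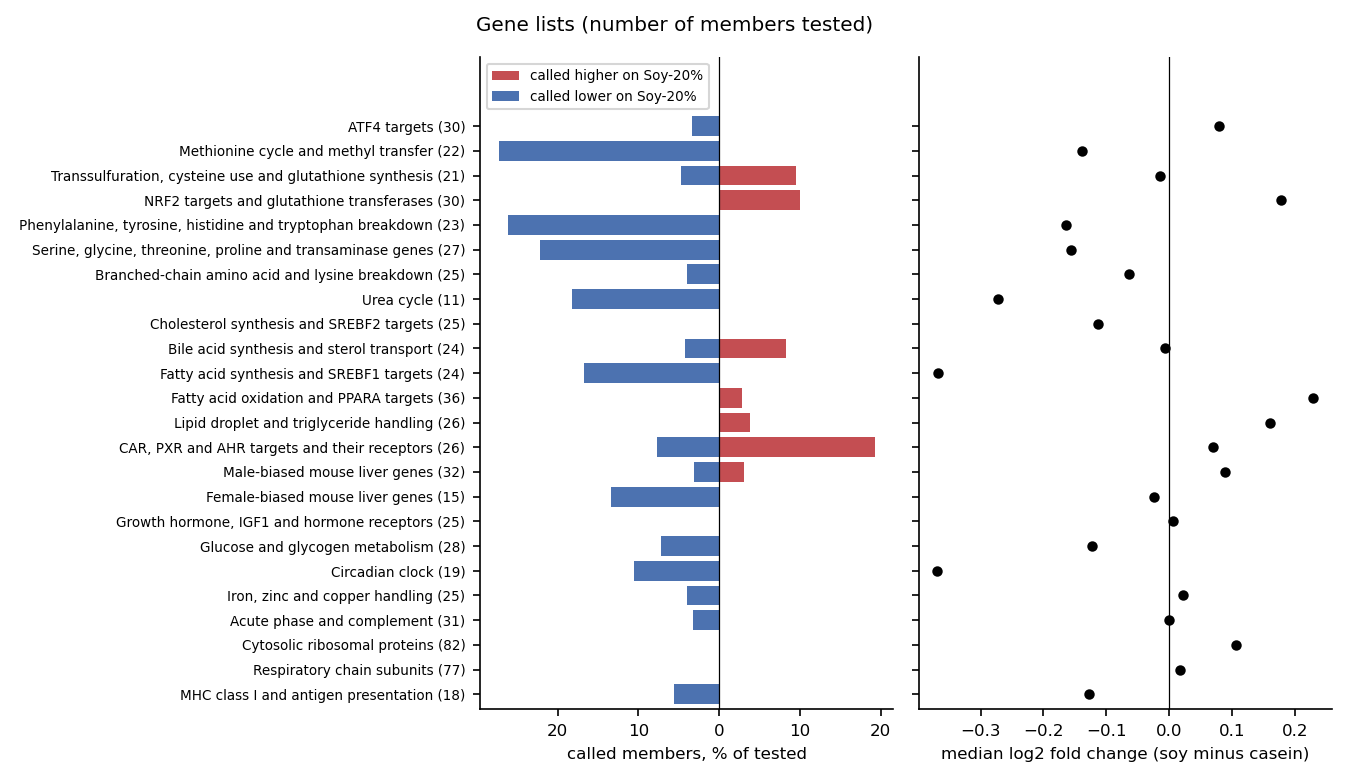
Left, members called higher (right of 0) or lower (left of 0) on Soy-20% as a percentage of the members tested, for 24 gene lists. Right, the median log2 fold change of each list, Soy-20% minus Cas-20%. The methionine cycle and amino acid breakdown lists hold falls only, and the CAR, PXR and AHR list holds the most rises.

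The remaining large differences lay in genes with few reads. *Chic1* had 37.8 to 93.2 (median 64.5) on Cas-20% and 12.2 to 21.1 (median 14) on Soy-20% (−2.03 ± 0.22, edgeR adjusted p = 0.00015). It was the 1 gene called between Soy-20% and Soy-20% + SAA (−1.37, edgeR adjusted p = 0.014), a call lost with the GC trend. The supplemented livers had 31.5 to 47.5 (median 41.8), above all Soy-20% livers. *Gpx6*, a glutathione peroxidase, had 33.2 to 116 (median 52.9) and 7.32 to 26.2 (median 15.4) (−2.001 ± 0.34, edgeR adjusted p = 0.0064). *Cenpm*, a centromere protein, *Dct*, an enzyme of melanin synthesis, and *Zap70*, a T cell kinase, fell by 1.48, 1.31 and 1.13, none with overlap. The B and T cell marker list had no called gene and overlapping sums. Among the rises, *Tsku*, a secreted liver protein, had 41.9 to 97.5 (median 73.5) and 127 to 338 (median 211) (1.503 ± 0.23, edgeR adjusted p = 0.0034), and the supplemented livers 44.2 to 117 (median 97.8). *Tsku* was not called between Soy-20% and Soy-20% + SAA (edgeR adjusted p = 0.055). *Pcp4l1* and *Proca1* rose by 1.27 and 1.21, and the call of *Pcp4l1* was lost with the GC trend (adjusted p = 0.068).

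*Ttn*, titin of striated muscle, had the largest fitted rise but only 118 reads over the Soy-20% livers and 14 over the Cas-20% livers. Per read counted this is a ratio of 8.77, with a 95% exact interval of 5.03 to 16.5 that covers counting error only. Skeletal muscle markers moved with it. Their summed normalized counts were 4.83 to 13.3 on Cas-20% and 34.7 to 73.1 on Soy-20%. The defining marker *Ckm* was at 0 in all Cas-20% livers and at 2.14 to 7.32 on Soy-20%, 1.54 to 3.82 on Soy-20% + SAA and 3.52 to 7.91 on Cas-5%. Their part in the *Ttn* result was not tested.

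The most abundant called genes changed by less. *Car3*, carbonic anhydrase 3, rose, with 41524 to 53946 (median 50026) on Cas-20% and 57651 to 88452 (median 80798) on Soy-20% (0.68 ± 0.10, edgeR adjusted p = 0.0034). *Serpina1d*, an alpha-1 antitrypsin copy, fell, with 61806 to 83824 (median 67778) on Cas-20% and 52073 to 58164 (median 54307) on Soy-20% (−0.35 ± 0.08, edgeR adjusted p = 0.029), a call lost with the GC trend and in 7 of 12 fits that left out a liver.

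The same protein sources were compared again in livers the first comparison did not use, Soy-10% against Cas-5%. There 1292 of 12041 genes (10.7%) differed. Methionine was nearly matched in this pair, but protein was 11.5% against 5%. Of the 319 genes called at 20% protein 315 were tested, and 158 (50.2%) had the same sign, against 53.5% of all 11730 genes tested in both. Of the 147 that rose on Soy-20%, 95 were higher in sign on Soy-10% and 24 were called higher, where 6.14% of all genes were. Of 168 that fell, 63 were lower in sign and 14 were called lower, where 4.59% of all genes were. The 80 genes called in both pairs held 38 with the same and 42 with the opposite sign.

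Genes of foreign compound metabolism were among those higher on soy in both pairs. *Cyp3a11* was 1.35 higher on Soy-10% (edgeR adjusted p = 4.3e-07), *Ces2a* 1.31 (adjusted p = 4.4e-08), *Ces1e* 0.99 (adjusted p = 1.8e-07) and *Cyp3a59* 1.67 (adjusted p = 8.6e-06) on the log2 scale. The difference between the pairs was called for *Cyp3a11* and not for the other 3. *Csad* differed by 0.01 in the restricted pair (edgeR adjusted p = 0.97), and the difference between the pairs was 2.23 (adjusted p = 1.9e-07). Several amino acid genes had the opposite sign in the restricted pair. *Oat* was 0.66 and *Agxt* 1.06 higher on Soy-10% than on Cas-5%, and the differences between the pairs were −2.08 and −1.68 (edgeR adjusted p = 8.8e-07 and 1.4e-06). *Ass1* was 0.83 higher, *Gnmt* 0.71 and *Nnmt* 2.34, with differences between the pairs of −1.53, −1.28 and −3.33. Over all genes 746 of 12450 (5.99%) differed between the pairs, a test that shares its livers with both comparisons.

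**Figure D5:**
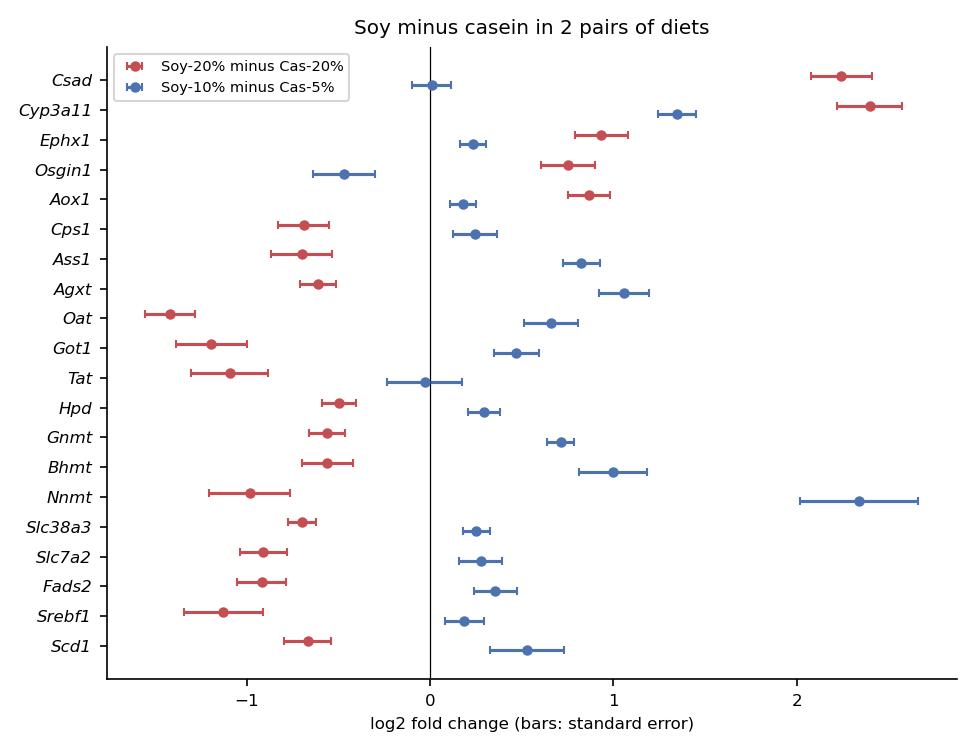
Log2 fold changes of 20 genes (x axis, with standard errors) for Soy-20% minus Cas-20% and for Soy-10% minus Cas-5%, 6 livers a diet. *Cyp3a11* is positive in both pairs, whereas *Oat*, *Agxt*, *Ass1*, *Gnmt* and *Nnmt* are negative at 20% protein and positive in the restricted pair.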

How the data were processed

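Raw counts were deposited by the authors, who made QuantSeq 3′ mRNA libraries, sequenced them and counted reads per gene with the Lexogen pipeline on the Bluebee platform. The aligner and annotation release are not given in the sources used here. The normalized signal deposited by the authors is the same counts divided by DESeq2 size factors (DESeq2 1.30 and R 4.0.3 in the submitters' processing notes), and is called normalized count here. The tables hold 14173 genes, and 34 had no symbol. Coordinates are those of GENCODE M21 for GRCm38.

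Livers were grouped by labelled diet, 1 library a mouse. The labels give no cage or batch. Counts were tested with edgeR 4.0.16 in R 4.3.3 (filterByExpr, TMM, quasi-likelihood F test, two-sided, Benjamini-Hochberg adjustment at 0.05). Each comparison used its own 12 livers, and the difference between pairs used 24. On simulated counts for Soy-20% minus Cas-20% over 11875 genes, edgeR called 90 of 100 genes changed by 1 on the log2 scale and 99 of 100 changed by 2, with 7 false calls. These counts were drawn without a GC trend or a split among the Cas-20% livers, so false calls under either were not measured. Fits against Cas-20% livers 1 to 3 or 4 to 6 alone were added after the data were seen. DESeq2 1.42.0 was an alternative. So were median-of-ratios size factors, no filter, a mean of 10 counts, all 30 livers, a replicate block, single livers left out and, as a covariate, the slope of each library on GC content, taken over the final 200 nucleotides of transcripts. That slope was −0.044 to 0.042 log2 units per 10% GC in the 12 livers and up to 0.22 in Soy-20% + SAA. Values of that diet are given side by side, apart from the calls of its own fits named above.

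Genes named are the 8 largest rises and falls (called, a mean of 10 normalized counts in one diet, no overlap), the 3 most abundant called genes, up to 3 members of each of 24 lists by smallest p and the genes the study measured by PCR. The lists and the comparison were chosen with earlier results of these data known. Genes chosen after their values were seen are named as such, except *Mat1a*, *Mt1* and *Dbp*, which were also chosen that way. Some genes that the rule chose are left out of the text. Python 3.11.15, pandas 2.3.3, scipy 1.17.1 and matplotlib 3.10.9 were used for tables and figures.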

Additional observations from a re-analysis of the deposited data

Results flagged for a closer look

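Among the genes with values in the text and the library measures, 164 sets of 6 livers were searched for a liver far from the rest. Such a liver was found in 10 sets. The sets share the same 12 livers and are not independent, and the number that chance would flag was not tested. Cas-20% liver 2 stood out in 4 of the 10. Its 10 most abundant genes took 34.1% of reads, against 29.4% to 30.2% in the other Cas-20% livers. Its normalized count was 46658 for *Gnmt* (others 29563 to 32905), 3721 for *Uroc1* (2868 to 3134) and 5365 for *Aldh1l1* (3577 to 4167). Soy-20% liver 1 had the highest *Fads1*, 5057 against 3043 to 3702, and *Aldh4a1*, 3004 against 2547 to 2680. Soy-20% liver 5 had a *Cyp1a2* count of 5315, against 2975 to 3416. Cas-20% liver 3 was low for *Abcg5*, 342.6 against 467.3 to 538.9, and Cas-20% liver 5 for *Cyp2c55*, 4.98 against 17.7 to 24.1. Soy-20% liver 2 had the deepest library of its diet, 12046128 reads against 9993509 to 10633466.

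The soy minus casein difference at 20% protein and that in the restricted pair differed, by the edgeR test of their difference, for 54 of the 79 called genes with values in the text. These genes were chosen by the first difference, which shares its livers with the test. The first minus the second difference was positive on the log2 scale for 10 genes. It was 4.34 for *Ttn*, 1.04 for *Cyp3a11*, 2.23 for *Csad*, 1.24 for *Tsku*, 1.75 for *Pcp4l1*, 0.93 for *Proca1*, 0.69 for *Ephx1*, 1.21 for *Osgin1*, 0.76 for *Ces1d* and 0.68 for *Aox1*. The value was negative for the other 44. It was −2.20 for *Chic1*, −2.63 for *Gpx6*, −3.08 for *Hamp2*, −1.81 for *Cenpm*, −2.08 for *Oat*, −3.65 for *Dct*, −1.67 for *Got1*, −2.13 for *Zap70* and −1.20 for *Scd1*. Further values were −0.74 for *Serpina1d*, −0.40 for *Shmt2*, −1.28 for *Gnmt*, −0.66 for *Bhmt2*, −0.80 for *Hpd*, −1.07 for *Tat*, −1.68 for *Agxt* and −1.07 for *Aass*. Other values were −0.94 for *Cps1*, −1.53 for *Ass1*, −1.28 for *Fads2*, −0.68 for *Fads1*, −1.32 for *Srebf1*, −1.99 for *Cyp4a12b*, −1.47 for *Cyp17a1*, −1.38 for *Per2* and −0.53 for *Nr1d1*. There were also values of −0.45 for *F7*, −0.96 for *Slc38a3*, −1.19 for *Slc7a2*, −0.91 for *Slc38a4*, −0.74 for *Cyp1a2*, −3.33 for *Nnmt*, −1.57 for *Bhmt*, −0.65 for *Dmgdh* and −0.76 for *Prodh*. The remaining values were −0.90 for *Gpt*, −0.67 for *Aldh4a1*, −0.85 for *Uroc1*, −0.42 for *Fah*, −0.71 for *Hgd*, −0.44 for *Klf15*, −0.73 for *Elovl2*, −1.08 for *Aldh1l1* and −0.67 for *Papss2*.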

How the results depend on the processing

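The count of 319 genes became 606 with DESeq2, 96 with each library's GC trend in the fit and 190 with the replicate number as a block, and ran from 160 to 442 with single livers left out. It was 598 against Cas-20% livers 1 to 3 alone and 163 against livers 4 to 6 alone, fits chosen after seeing the data. The same-numbered livers of both diets did not deviate together (correlations of −0.14 to 0.12), so the block pairs livers that share only a number. The count of 45 became 73 with all 30 livers in the fit and 18 with the GC trend, and ran from 31 to 68 with single livers left out. For the difference between the pairs the count of 746 became 493 with all 30 livers in the fit. The count of 1292 in the restricted pair stayed within 1.5 times itself in each alternative fit. Of 79 called genes with values in the text none changed direction in any other fit, and 41 stayed called in all of them but the pair against 3 casein livers, where 39 of the 79 were called in both. Calls were lost by 38 with the GC trend, by 19 with the block, by 9 with all 30 livers, by 4 with no filter on low counts, by 2 with median-of-ratios size factors and by none with DESeq2 or a mean of 10 counts. Leaving out a single liver lost the call of 23. The cause was not tested. *Asns*, not called and at 0.03, ran from −0.14 to 0.41 with single livers left out, turning negative without Cas-20% livers 4, 5 or 6 or Soy-20% livers 2 or 5. Depth limits *Psat1*, *Ttn* and the muscle markers, which had few reads.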

Other observations

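Some genes outside the lists or beyond their leading members were looked at after their values were seen. *Aldh1l1*, which oxidizes formyl-tetrahydrofolate in 1-carbon metabolism, had 3577 to 5365 (median 3927) on Cas-20% and 2524 to 3142 (median 2688) on Soy-20% (−0.58 ± 0.09, edgeR adjusted p = 0.004). *Elovl2*, which lengthens polyunsaturated fatty acids, fell by 0.50, a call lost with the GC trend and in 9 of 12 fits that left out a liver. *Sds*, serine dehydratase, and *Arg1*, arginase, differed by −0.92 and −0.32 and were not called (edgeR adjusted p = 0.064 and 0.061).

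Leading list members that did not pass the test gave the following differences on the log2 scale. *Pparg*, which promotes fat storage, differed by 0.81, with 71.6 to 200.4 (median 129) on Cas-20% and 173 to 349.6 (median 228) on Soy-20% (edgeR adjusted p = 0.086). The difference was 1.42 against Cas-20% livers 1 to 3 alone (edgeR adjusted p = 0.0053) and 0.39 against livers 4 to 6 alone (adjusted p = 0.37). *Ppargc1a*, a coactivator of gluconeogenesis, differed by −0.45, without overlap between the diets (edgeR adjusted p = 0.061). *Clock* differed by 0.29, *Lbp*, the lipopolysaccharide binding protein, by 0.33, and *Slc39a14*, a zinc and iron transporter, by −0.29. The ribosomal genes *Rpl4*, *Rpl36a* and *Rpl11* differed by 0.36, 0.32 and 0.28, and *Insig1*, an SREBF2 target, by −0.62. *Insig1* had 1592 to 2198 in Cas-20% livers 1 to 3 and 625 to 861 in livers 4 to 6. Its difference was −1.14 against the former alone and 0.21 against the latter alone, neither called (edgeR adjusted p = 0.061 and 0.82).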
